A study of Homo sapiens with 12 samples.

Results

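The BCL2 family decides whether the outer mitochondrial membrane stays intact. It was represented here by 10 genes taken by symbol: PMAIP1, BBC3, BCL2L11, BID, BAX and BAK1, whose products promote cell death, and BCL2, BCL2L1, BCL2L2 and MCL1, whose products oppose it. A probe set naming a single gene was on the arrays for 9 of these 10, among 11963 such genes in all. LNCaP is an androgen-responsive line derived from prostate cancer, which the labels give as early stage. Separate cultures received miR-130a, miR-203, miR-205 or, as the control, a scramble microRNA by transfection, and each of the 4 groups had 3 arrays called biological replicates. All groups thus received a small RNA, and untransfected cells are not analysed here. The sources used here do not give the dose or the time after transfection. All cultures come from a single cell line.

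In the mitochondrial pathway of apoptosis, the BH3-only proteins (here the products of PMAIP1, BBC3, BCL2L11 and BID) sense stress and bind either the pro-survival proteins or the effectors BAX and BAK. Active BAX and BAK open the outer mitochondrial membrane, which releases cytochrome c and leads to caspase activation. The pro-survival proteins hold BH3-only proteins and effectors in check, each with its own binding preferences: NOXA, the product of PMAIP1, binds mainly MCL1. Transcripts are only 1 layer of this control, since many of these proteins are regulated by cleavage, phosphorylation or degradation.

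A microRNA pairs with its target transcripts mainly through its seed, bases 2 to 8. The strands below are shown, with the seed in capitals, because their seeds differ from each other. They are those of RefSeq (build GRCh38.p14), matched by name for 2 of the 3 microRNAs. The labels do not state which strand was transfected. The genomic copies lie at chr14:104117469-104117490 for miR-203 and chr1:209432166-209432187 for miR-205, both on the plus strand.
hsa-miR-203a-3p: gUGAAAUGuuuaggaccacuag
hsa-miR-205-5p: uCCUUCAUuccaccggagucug

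The values are log2 probe set intensities between 2.36 and 13.95, with array medians from 2.76 to 2.78. Across the 6821 genes tested below, arrays of a group correlated with r from 0.992 to 0.997, and arrays of different groups with r from 0.964 to 0.986. Luminal prostate markers lay above the array median on all 12 arrays for each of the 7 on the arrays, among them KLK3 at 10.14 to 12.06 and KRT18 at 9.81 to 10.41. The basal keratins KRT5, KRT14 and KRT15, the leukocyte genes PTPRC, CD3E and CD14 and the endothelial genes PECAM1, VWF and CDH5 were above it on 0 arrays. Of 5 fibroblast genes, COL1A1 was above it on all 12 arrays at 2.895 to 3.46 and COL3A1 on 2.

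Where a gene had several probe sets, the brightest by mean over the 12 arrays stood for it, and it was tested if it exceeded the median of its array on 3 arrays or more. This left 6821 genes and 7 members: PMAIP1, BID, BAX and BAK1 on the pro-apoptotic side, and BCL2L1, BCL2L2 and MCL1 on the pro-survival side. BBC3, which encodes the BH3-only protein PUMA, is not analysed here, because its only probe set also names other genes. BCL2L11, which encodes BIM, and BCL2 were too dim to be tested. Each difference is the first group's mean log2 value less the second's, ± the standard error of a limma fit over 3 arrays a group, and p-values are adjusted by Benjamini-Hochberg over all genes tested. "Rose" and "fell" are used for adjusted p under 0.05. By the moderated F-test of limma, 6 of the 7 tested members differed among the 4 groups, beside 60.8% of all tested genes. BAX was the exception.

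Counted against scramble, 6 of the 7 members passed with miR-203, 3 with miR-130a and 2 with miR-205. When only the 2 groups compared entered the fit, these counts were 2, 3 and 1, so the order of miR-203 and miR-130a turned. With miR-203, PMAIP1, BID, BAK1 and MCL1 rose and BCL2L1 and BCL2L2 fell, so 4 of 7 rose beside 17.3% of all tested genes and 2 of 7 fell beside 18.9%. With miR-130a, PMAIP1 and MCL1 rose (2 of 7, beside 12% of all tested genes) and BCL2L2 fell (1 of 7, beside 11.6%). With miR-205, BCL2L1 rose (1 of 7, beside 11.3%) and PMAIP1 fell (1 of 7, beside 14.8%). The arrays of the 2 groups did not overlap for 3 members with miR-130a (39.2% of all tested genes), 6 with miR-203 (44.3%) and 2 with miR-205 (39%), and these were the members that passed the test. The shares for all genes are themselves high, so a member's call is read beside many others. The 3 comparisons share the scramble arrays, so they are not independent of each other. In bulk RNA of this kind, fewer cells expressing a gene and less RNA per cell cannot be told apart.

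**Figure D1:**
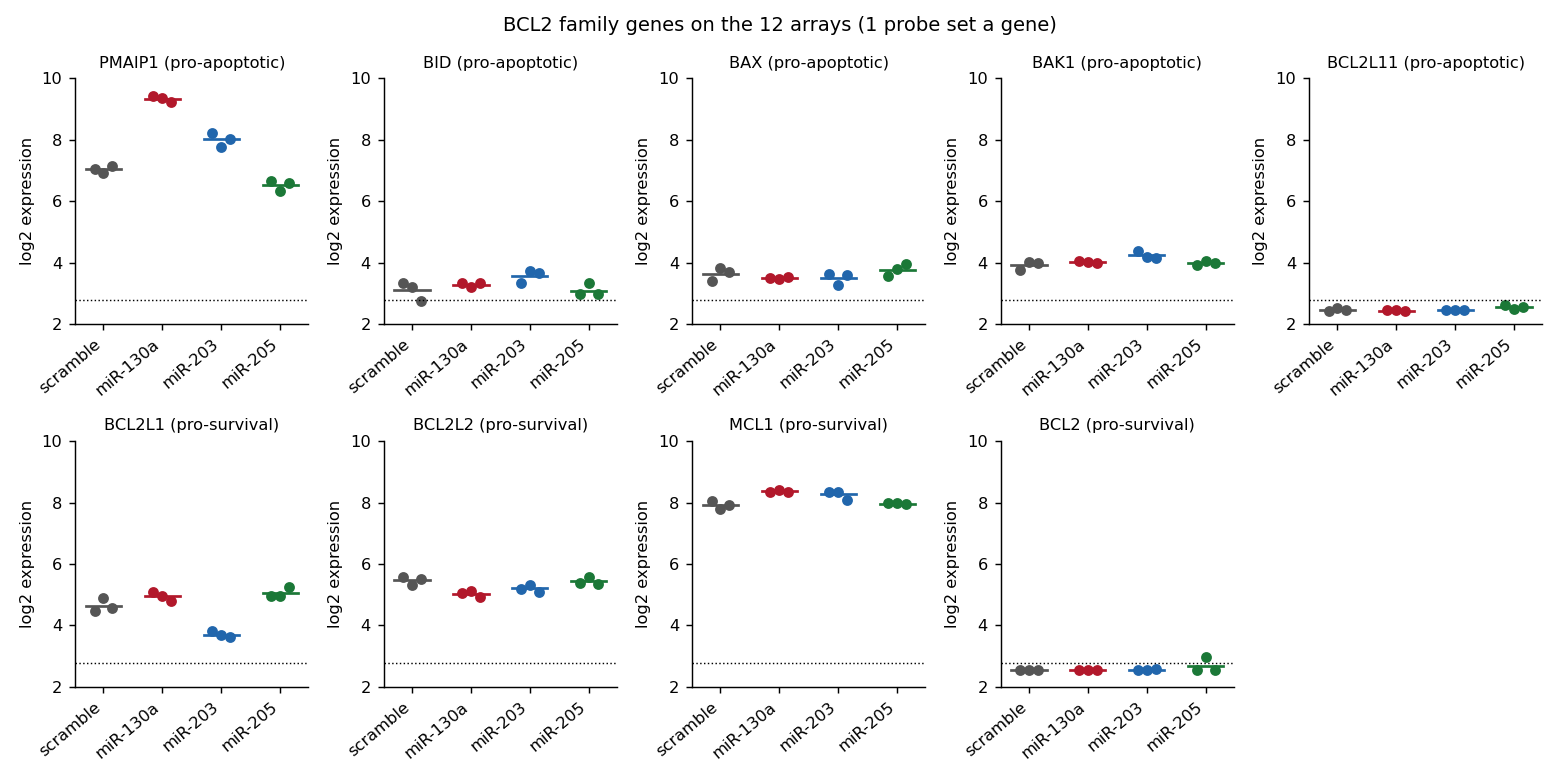
Log2 values (vertical axis) of the 9 measured genes on each array, by group (horizontal axis); points are single arrays, 3 a group, and the dashed line is the array median. PMAIP1 spans from 6.34 to 9.43 with no overlap between groups, while BCL2 and BCL2L11 stay near the lowest values of the arrays.

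PMAIP1, whose product NOXA is a BH3-only protein that binds MCL1, had the largest differences of the family and ranked 27 of 6821 genes by the F-test. Its values were 7.06, 6.90 and 7.16 on the scramble arrays, 9.43, 9.35 and 9.24 with miR-130a, 8.23, 7.78 and 8.04 with miR-203, and 6.66, 6.34 and 6.58 with miR-205. No 2 groups overlapped, and every step in the order miR-205, scramble, miR-203, miR-130a passed the test.

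With miR-130a, PMAIP1 rose by 2.30 ± 0.12, which is 4.93-fold, with adjusted p = 1.761e-08 (limma). With miR-203 it rose by 0.97 ± 0.12, or 1.97-fold, with adjusted p = 4.407e-05 (limma). With miR-205 it fell by 0.51 ± 0.12, or 1.43-fold, with adjusted p = 0.006502 (limma). PMAIP1 is thus the only tested member that passed in all 3 comparisons with scramble, in opposite directions.

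The second probe set of PMAIP1 gave the same order for the microRNA groups that rose. Its values were 5.30, 5.58 and 5.44 on the scramble arrays, 7.54, 7.52 and 7.53 with miR-130a, 6.33, 6.26 and 6.59 with miR-203, and 5.30, 4.91 and 5.11 with miR-205. In the fit over all 10067 tested probe sets it differed from scramble by 2.09 ± 0.11 with miR-130a, 0.96 ± 0.11 with miR-203 and -0.33 ± 0.11 with miR-205. The last of these lay just inside the threshold (adjusted p = 0.04907 by limma). There the groups overlapped slightly, with miR-205 replicate 1 at 5.301 and scramble replicate 1 at 5.296.

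The promoter of PMAIP1 is shown because this gene carried the largest change of the family. RefSeq holds promoters for 8 of the 10 members, 13 in all. The PMAIP1 window below covers 250 bases before and 50 after the start of the transcript, at chr18:59899746-59900045 on the plus strand (GRCh38.p14), and 71.3% of its bases are G or C. Capitals mark the GC box GGGCGG, on either strand.
PMAIP1: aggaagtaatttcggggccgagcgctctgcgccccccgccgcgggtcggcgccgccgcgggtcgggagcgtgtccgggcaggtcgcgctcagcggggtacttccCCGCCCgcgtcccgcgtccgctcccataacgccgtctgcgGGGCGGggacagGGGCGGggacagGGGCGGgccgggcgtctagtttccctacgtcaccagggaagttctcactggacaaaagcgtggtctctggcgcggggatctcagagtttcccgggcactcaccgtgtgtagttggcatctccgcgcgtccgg
It holds 4 GC boxes, starting 146, 106, 94 and 82 bases before the start. A GC box is found in 45.0% of 35116 human promoters of the same length. The cAMP response element TGACGTCA (1.85% of promoters), the interferon response core GAAANNGAA (8.11%), the E-box CACGTG (7.26%) and the TATA box TATAAA (11.5%), each searched on both strands, had 0 matches in this window. The window holds only these letters, and nothing about any factor's binding was measured.

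BID, a BH3-only protein that is activated by caspase cleavage and links death receptors to mitochondria, was low on all arrays. Its values were 3.32, 3.21 and 2.75 on the scramble arrays, 3.32, 3.19 and 3.32 with miR-130a, 3.34, 3.72 and 3.67 with miR-203, and 2.96, 3.32 and 2.98 with miR-205. The miR-203 arrays were the highest, but the lowest of them stood only just above the highest scramble array. That scramble value, 3.3243, was exactly the same on 4 arrays, the others being miR-130a and miR-205 arrays. With miR-203, BID rose by 0.48 ± 0.15, or 1.40-fold, with adjusted p = 0.02203 (limma).

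The call for BID with miR-203 was not firm. It was lost without scramble replicate 3, where the array lay below its own median (0.31, adjusted p = 0.09955 by limma), without miR-203 replicate 2 (0.41, adjusted p = 0.08035) and without miR-203 replicate 3 (0.44, adjusted p = 0.06951). Its other probe set stood 0.30 ± 0.13 above scramble, short of the threshold at adjusted p = 0.09063 (limma). With miR-130a the difference was 0.18 ± 0.15 (adjusted p = 0.4096) and with miR-205 it was -0.0067 ± 0.15 (adjusted p = 0.9873), and neither passed.

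Of the effectors, BAX did not pass in any comparison with scramble, and BAK1 rose with miR-203. Both were low, at 3.28 to 3.95 for BAX and 3.74 to 4.38 for BAK1, with array medians from 2.76 to 2.78. BAX had values of 3.39, 3.82 and 3.69 on the scramble arrays, 3.49, 3.47 and 3.52 with miR-130a, 3.62, 3.28 and 3.59 with miR-203, and 3.57, 3.78 and 3.95 with miR-205. Every microRNA group overlapped with scramble. The difference was -0.14 (95% interval -0.41 to 0.13) with miR-130a, -0.14 (-0.41 to 0.13) with miR-203 and 0.13 (-0.14 to 0.40) with miR-205, and none passed. The second BAX probe set gave 0.015, 0.081 and -0.091, opposite in sign each time and also not past the threshold.

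BAK1 had values of 3.74, 4.01 and 3.996 on the scramble arrays, 4.06, 4.01 and 3.98 with miR-130a, 4.38, 4.18 and 4.14 with miR-203, and 3.91, 4.03 and 3.99 with miR-205. The miR-203 arrays lay above all others. BAK1 rose by 0.32 ± 0.089 with miR-203, or 1.25-fold, with adjusted p = 0.01351 (limma). That call was lost without miR-203 replicate 1 (0.24, adjusted p = 0.05357) and without scramble replicate 1 (0.23, adjusted p = 0.05271). The differences of 0.10 with miR-130a (adjusted p = 0.4607) and 0.06 with miR-205 (adjusted p = 0.6821) did not pass.

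BCL2L11 was measured by a pair of probe sets that were above the array median on 0 arrays. The first sat at the lowest value of the table on 8 arrays and reached no more than 2.39. The other, 222343_at, ranged from 2.43 to 2.61, with its highest values of 2.61, 2.49 and 2.54 on the miR-205 arrays. No fold is given for a gene this dim.

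On the pro-survival side, BCL2L1 fell with miR-203 and rose with miR-205. This gene encodes BCL-xL and, through alternative splicing, the death-promoting BCL-xS, and nothing here tells the forms apart. Its values were 4.48, 4.88 and 4.55 on the scramble arrays, 5.10, 4.94 and 4.80 with miR-130a, 3.80, 3.69 and 3.61 with miR-203, and 4.95, 4.94 and 5.25 with miR-205. The miR-203 arrays lay below all others, and those of miR-130a and miR-205 ran together above most scramble arrays.

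With miR-203, BCL2L1 fell by 0.94 ± 0.12, or 1.92-fold, with adjusted p = 7.213e-05 (limma). With the mean of its probe sets in place of the brightest, the difference was -0.57 and still passed. With miR-205 it rose by 0.41 ± 0.12, or 1.33-fold, with adjusted p = 0.02476 (limma). The latter call was lost without miR-205 replicate 3 (value 0.30 at adjusted p = 0.1111) and on leaving out scramble replicate 1 (value 0.33 at adjusted p = 0.09183) or 3 (value 0.37 at adjusted p = 0.08738). With miR-130a the difference of 0.31 ± 0.12 did not pass (adjusted p = 0.08477 by limma), and without scramble replicate 2 it did (0.43, adjusted p = 0.02128). Array weights also brought it past the threshold (0.31, adjusted p = 0.04607 by limma).

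The other probe sets of BCL2L1 kept these directions with smaller differences for miR-203. Probe set 212312_at differed from scramble by -0.32 ± 0.13 with miR-203 (adjusted p = 0.06659) and by 0.26 with miR-205 (adjusted p = 0.1549). Probe set 215037_s_at differed by -0.44 ± 0.17 with miR-203 (adjusted p = 0.05766) and by 0.50 ± 0.17 with miR-205 (adjusted p = 0.04757). All 3 probe sets were lower with miR-203 than with miR-130a and than with miR-205, past the threshold each time.

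BCL2L2, which encodes the BCL-xL relative BCL-w, was lower with miR-130a and miR-203. Its values were 5.59, 5.33 and 5.51 on the scramble arrays, 5.05, 5.10 and 4.91 with miR-130a, 5.19, 5.32 and 5.09 with miR-203, and 5.39, 5.56 and 5.36 with miR-205. Neither lowered group overlapped with scramble, though the highest miR-203 array came close to the lowest scramble array. BCL2L2 fell by 0.45 ± 0.093 with miR-130a, or 1.37-fold, with adjusted p = 0.003454 (limma). A single probe set stood for BCL2L2, since a further one that names it with other genes was not used. The choice of probe set could therefore not change its values.

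With miR-203, BCL2L2 fell by 0.27 ± 0.093, or 1.21-fold, with adjusted p = 0.03622 (limma). Any of 4 left-out arrays ended that call: miR-203 replicate 1 (-0.27, adjusted p = 0.07461), miR-203 replicate 3 (-0.22, adjusted p = 0.121), scramble replicate 1 (-0.21, adjusted p = 0.1197) and scramble replicate 3 (-0.25, adjusted p = 0.09693). Array weights ended it too (-0.21, adjusted p = 0.07468 by limma). With miR-205 the difference was -0.039 (adjusted p = 0.8133) and did not pass.

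MCL1, a short-lived pro-survival protein and the main partner of NOXA, rose with miR-130a and with miR-203. Its values were 8.06, 7.78 and 7.92 on the scramble arrays, 8.34, 8.42 and 8.33 with miR-130a, 8.36, 8.36 and 8.09 with miR-203, and 7.97, 7.98 and 7.95 with miR-205. The miR-130a and miR-203 arrays lay above all scramble and miR-205 arrays. MCL1 rose by 0.45 ± 0.089 with miR-130a, or 1.36-fold (adjusted p = 0.002892 by limma), and by 0.35 ± 0.089 with miR-203, or 1.28-fold (adjusted p = 0.007958). With miR-205 it differed by 0.046 (adjusted p = 0.7625) and did not pass.

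The size of the MCL1 difference depended on the probe set. On 200798_x_at the values were 6.44, 6.85 and 6.83 with scramble, 7.24, 7.22 and 7.50 with miR-130a, 7.64, 7.63 and 7.80 with miR-203, and 6.57, 6.53 and 6.64 with miR-205. There MCL1 rose by 0.61 ± 0.11 with miR-130a (adjusted p = 0.001824 by limma) and by 0.99 ± 0.11 with miR-203 (1.98-fold, adjusted p = 3.04e-05). Probe set 200796_s_at was dimmer and also passed, at 0.70 ± 0.18 with miR-130a (adjusted p = 0.01391) and 0.85 ± 0.18 with miR-203 (adjusted p = 0.002765). MCL1 transcripts are also spliced into a long and a short form, which were not told apart.

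Between miR-130a and miR-203 the brightest MCL1 probe set differed by 0.094 and did not pass (adjusted p = 0.4237 by limma), whereas on 200798_x_at miR-130a was lower by 0.37 ± 0.11 (adjusted p = 0.01932 by limma). A further probe set, 214056_at, was above the array median only on 2 of the miR-203 arrays, at 2.61, 2.76 and 3.27 against 2.38 to 2.49 on all other arrays, and was not tested.

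BCL2, the founding member, which binds BIM and other BH3-only proteins, was near the lowest value on all 4 of its probe sets. On both 203684_s_at and 203685_at, 11 of the 12 arrays sat exactly at the lowest value of the table. On 207004_at the values ran from 2.53 to 2.56 except for miR-205 replicate 2 at 2.95, the only array on which a BCL2 probe set passed the array median. The pro-survival side of these cells was therefore read through BCL2L1, BCL2L2 and MCL1.

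Counting the probe sets that name a single gene, 14 of the 22 of the family were bright enough to be tested. Of these 14, 6 changed with miR-130a, beside 21.3% of all tested probe sets, 9 changed with miR-203, beside 33.9%, and 4 changed with miR-205, beside 24.1%. The miR-205 calls were both probe sets of PMAIP1, lower, and 2 of the 3 of BCL2L1, higher. That count was 1 to 3 when single arrays were left out, and 1 without miR-205 replicate 3.

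**Figure D2:**
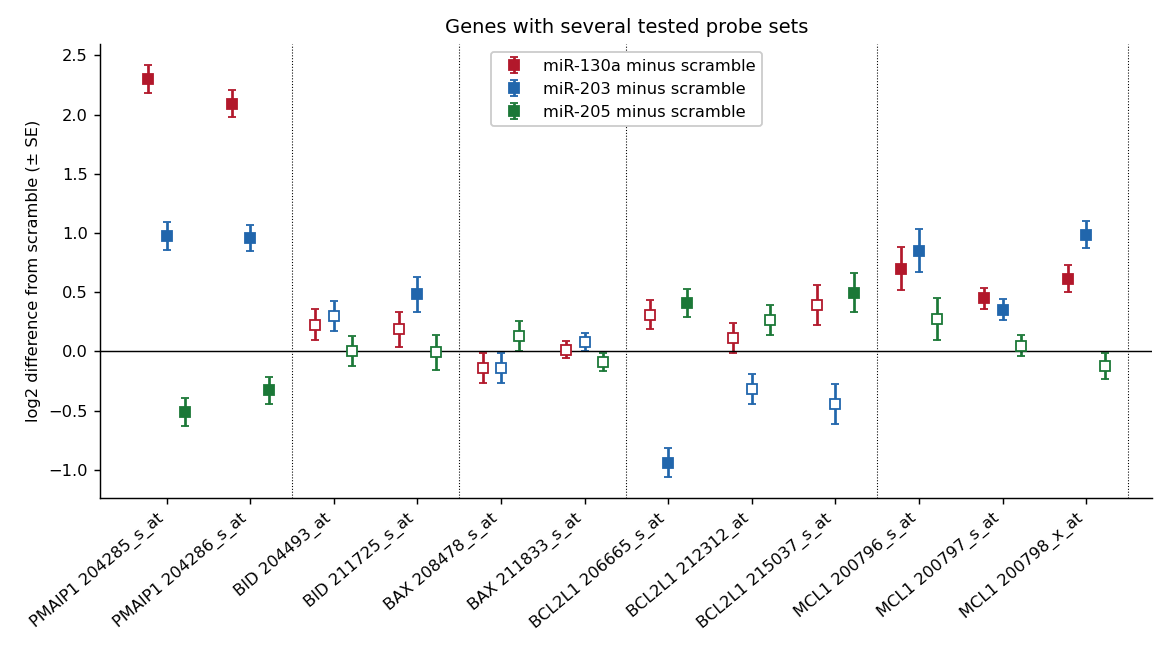
Log2 difference from scramble (vertical axis, bars are ± SE, 3 arrays a group) for each tested probe set of the members with several (horizontal axis), coloured by microRNA; open squares did not pass the threshold. Both PMAIP1 probe sets rise by over 2 with miR-130a, and the MCL1 probe sets range from 0.35 to 0.99 with miR-203.

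Pro-apoptotic and pro-survival members were then set side by side. With miR-203, 3 of 4 tested pro-apoptotic members rose and 0 fell, while 1 of 3 pro-survival members rose and 2 fell. The median log2 difference was 0.40 for the pro-apoptotic and -0.27 for the pro-survival members, beside 0.0061 for all tested genes. Relative to the scramble mean of each gene, the pro-apoptotic members averaged 0.47, 0.32 and 0.44 on the miR-203 arrays and the pro-survival members -0.23, -0.22 and -0.41. Without PMAIP1 the 3 other pro-apoptotic members still averaged 0.23, 0.18 and 0.25 on these arrays, against -0.061, 0.13 and -0.068 on the scramble arrays. On the brightest probe sets the classes thus lay apart on each miR-203 array, PMAIP1 included or not. The pro-survival average drew most on BCL2L1 at -0.94, beside -0.27 for BCL2L2 and 0.35 for MCL1. MCL1 rose by more on its other tested probe sets, and no average was taken without BCL2L1. On scramble replicate 2 the classes, without PMAIP1, stood at 0.13 and -0.014.

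With miR-130a, 1 of 4 pro-apoptotic members rose and 0 fell, and 1 of 3 pro-survival members rose and 1 fell. The medians were 0.14 and 0.31, beside -0.0085 for all tested genes. The difference between the classes was -0.17 by medians and 0.51 by means, so its sign depended on how members were summed. The pro-apoptotic members averaged 0.61 with PMAIP1 and 0.048 without it, against 0.10 for the pro-survival members.

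With miR-205, 0 of 4 pro-apoptotic members rose and 1 fell, and 1 of 3 pro-survival members rose and 0 fell. The medians were 0.027 and 0.046, beside -0.0038 for all tested genes. The difference of medians was -0.020 and that of means -0.22. The difference of medians changed sign with the arrays used, from -0.12 to 0.10 when single arrays were left out, the highest without scramble replicate 2. With 4 and 3 members chosen with earlier results known, these class values are descriptions, and no test was made of them.

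The balance of PMAIP1 against MCL1, whose products bind each other, can be given as the change of the first minus that of the second, both relative to scramble. It was 1.97, 1.81 and 1.79 on the miR-130a arrays, 0.75, 0.30 and 0.82 on the miR-203 arrays, and -0.43, -0.76 and -0.49 on the miR-205 arrays. On the scramble arrays it was -0.12, 0.0047 and 0.12. With this MCL1 probe set, 200797_s_at, the 4 groups did not overlap. With 200798_x_at the miR-203 arrays stood at 0.25, -0.19 and -0.097, within the scramble arrays at 0.28, -0.28 and 0.0010, and with 200796_s_at at 0.0033, 0.12 and 0.25, within 0.48, -0.42 and -0.064. The miR-130a arrays, at 1.41 or above with either, stayed above all others. These are transcript differences, and no protein was measured.

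**Figure D3:**
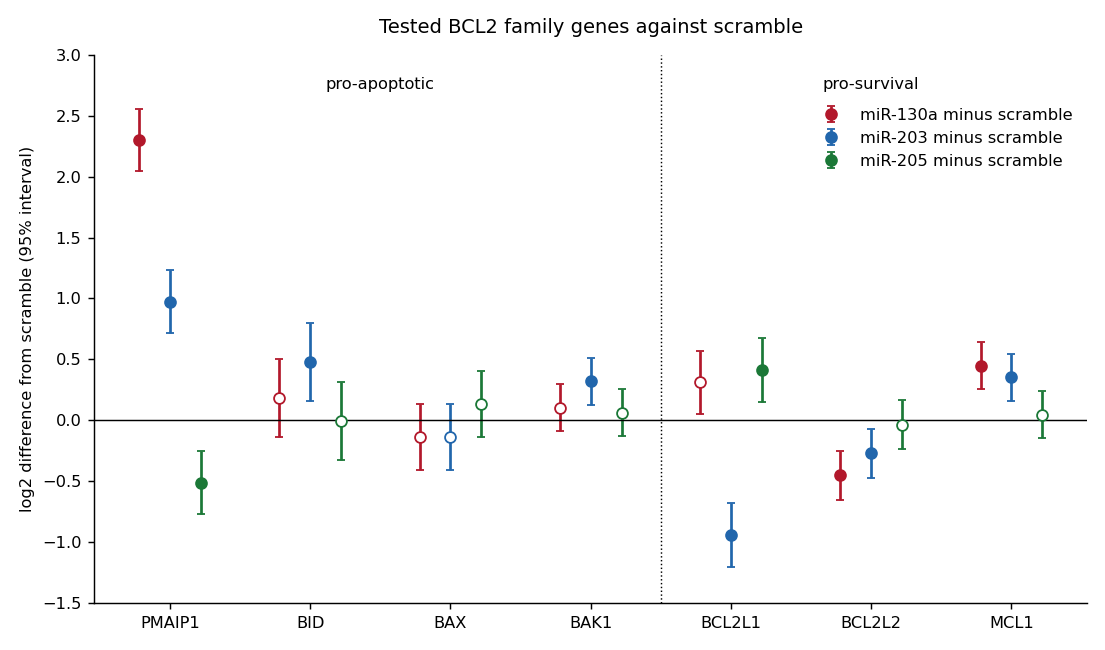
Log2 difference from scramble (vertical axis) of the 7 tested members (horizontal axis), with 95% intervals of the limma fit, 3 arrays a group, coloured by microRNA; open points did not pass the threshold. PMAIP1 stands at 2.30 with miR-130a, and BCL2L1 stands on opposite sides of 0 with miR-203 (-0.94) and miR-205 (0.41).

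The microRNA groups were also compared with each other, which does not use the scramble arrays except for the shared spread. Between miR-130a and miR-203, 2 of 7 members differed, beside 41.2% of all tested genes. Both were higher with miR-130a: PMAIP1 by 1.33 (adjusted p = 2.317e-06 by limma) and BCL2L1 by 1.25 (adjusted p = 4.621e-06). BAK1, lower with miR-130a by 0.22 and not past the threshold at adjusted p = 0.06649, passed without miR-203 replicate 3 (-0.27, adjusted p = 0.04913) and without scramble replicate 1 (-0.22, adjusted p = 0.03658).

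Between miR-130a and miR-205, 3 of 7 members differed, beside 33.6% of all tested genes. PMAIP1 was higher with miR-130a by 2.81, or 7.03-fold (adjusted p = 1.69e-09 by limma), and MCL1 by 0.40 (adjusted p = 0.003731), whereas BCL2L2 was lower by 0.41 (adjusted p = 0.003907). BCL2L1 differed by -0.10 and did not pass (adjusted p = 0.5855).

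Between miR-203 and miR-205, 5 of 7 members differed, beside 37.9% of all tested genes. With miR-203, PMAIP1 was higher by 1.49 (adjusted p = 8.409e-07 by limma), BID by 0.49 (adjusted p = 0.01961), MCL1 by 0.31 (adjusted p = 0.01622) and BAK1 by 0.26 (adjusted p = 0.03592). BCL2L1 was lower by 1.35 (adjusted p = 2.466e-06), the largest difference of a pro-survival member between any 2 of the 4 groups on the brightest probe sets. BCL2L2 differed by -0.23 and did not pass (adjusted p = 0.06547).

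Single arrays decided several of the smaller differences between miR-203 and miR-205, and the count of members ran from 3 to 6. It was 3 without miR-203 replicate 1, where BAK1 (0.18, adjusted p = 0.1337 by limma) and MCL1 (0.26, adjusted p = 0.05686) no longer passed. It was also 3 without miR-203 replicate 2, where BID (0.42, adjusted p = 0.07611), BAK1 (0.29, adjusted p = 0.05205) and MCL1 (0.26, adjusted p = 0.06575) no longer passed and BCL2L2 did (-0.29, adjusted p = 0.04558). Without miR-205 replicate 1 or 3 it was again 3, and BID (0.42 and 0.43, adjusted p = 0.07672 and 0.07119) and BAK1 (0.22 and 0.26, adjusted p = 0.1186 and 0.07286) no longer passed. Without miR-203 replicate 3 BID no longer passed (0.44, adjusted p = 0.06226), and without scramble replicate 2 BCL2L2 did (-0.23, adjusted p = 0.04948). PMAIP1 and BCL2L1 passed each time.

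Other genes of the pathway were read in 4 lists. Of the 13 other BCL2 family genes 10 were on the arrays and 5 were tested. With miR-130a 0 rose and 2 fell (12% and 11.6% of all tested genes), with miR-203 2 rose and 1 fell (17.3% and 18.9%), and with miR-205 2 rose and 1 fell (11.3% and 14.8%). The medians were -0.22, -0.030 and 0.013, beside -0.0085, 0.0061 and -0.0038 over all tested genes. The miR-130a count was 0 without miR-130a replicate 3 or scramble replicate 2, and 1 without any of 8 other arrays. BAD, a BH3-only protein held inactive by phosphorylation, fell by 0.32 with miR-205 (adjusted p = 0.01017 by limma) and by 0.25 with miR-130a (adjusted p = 0.04442). The latter stood at the threshold and was lost on leaving out any of 9 arrays, for instance miR-130a replicate 1 (-0.17, adjusted p = 0.1814 by limma). The other BAD probe set had means of 3.81 with miR-130a, 3.62 with miR-205 and 3.85 with scramble. BIK, a BH3-only protein of the endoplasmic reticulum, was 5.25, 5.41 and 5.08 with miR-130a, 5.99, 6.22 and 6.04 with miR-203, 5.49, 5.26 and 5.69 with miR-205 and 5.66, 5.52 and 5.22 with scramble, and rose with miR-203 by 0.62 ± 0.13 (adjusted p = 0.00301).

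BNIP3 and BNIP3L are BH3-like proteins of the mitochondrial surface that take part in mitophagy. BNIP3 rose by 0.52 with miR-203 (adjusted p = 7.848e-05 by limma) and by 0.41 with miR-205 (adjusted p = 0.0006852). BNIP3L on its brightest probe set was 8.35, 8.21 and 8.35 with scramble, 6.93, 7.26 and 7.37 with miR-203 and 9.09, 8.97 and 9.07 with miR-205. It fell by 1.12 ± 0.099 with miR-203 (adjusted p = 3.016e-06) and rose by 0.74 with miR-205 (adjusted p = 0.0001393). The probe sets disagreed for miR-203: on 221479_s_at the difference was 0.073 ± 0.10 (adjusted p = 0.6311), while for miR-205 it was 0.40 ± 0.10 and passed (adjusted p = 0.01419).

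Of the 17 genes that act after the mitochondrial membrane opens, or at its channels, 14 were on the arrays and 12 were tested. With miR-203 6 of 12 rose and 0 fell, beside 17.3% and 18.9% of all tested genes. With miR-130a 1 rose and 0 fell (12% and 11.6%), and with miR-205 1 rose and 1 fell (11.3% and 14.8%), each near or under the share for all genes. The medians were 0.26, -0.011 and 0.058 with miR-203, miR-130a and miR-205, beside 0.0061, -0.0085 and -0.0038 over all tested genes. Without scramble replicate 1 the miR-130a count was 2, and without miR-205 replicate 2 or 3 or scramble replicate 2 the miR-205 count was 1. DIABLO, which frees caspases from their inhibitors, rose by 0.36 with miR-130a (adjusted p = 0.007653 by limma) and by 0.24 with miR-203 (adjusted p = 0.03807). The miR-203 call was lost on leaving out any of 5 arrays, with the highest adjusted p = 0.1345 at a difference of 0.18 without miR-203 replicate 1. The mitochondrial nuclease ENDOG rose by 0.28 (adjusted p = 0.009651) and DFFA, inhibitor and chaperone of a caspase-activated nuclease, by 0.33 (adjusted p = 0.009445), both with miR-203. VDAC1, a channel of the outer membrane, rose by 0.36 with miR-203 (adjusted p = 0.005879) and by 0.39 with miR-205 (adjusted p = 0.004674).

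Of 15 transcription factors that act on genes of the family, 14 were on the arrays and 13 were tested. With miR-130a 4 of 13 rose and 3 fell (12% and 11.6% of all tested genes), with miR-203 2 rose and 3 fell (17.3% and 18.9%), and with miR-205 1 rose and 4 fell (11.3% and 14.8%). The miR-203 counts and the miR-205 count of genes that rose are near the share for all genes. The medians were 0.0060, -0.14 and -0.23, beside -0.0085, 0.0061 and -0.0038 over all tested genes. Without scramble replicate 3 the miR-130a count was 4 in place of 7. ATF4, a factor of the integrated stress response, fell in all 3 comparisons with scramble. It fell by 1.08 with miR-130a (adjusted p = 2.36e-07 by limma), 1.03 with miR-203 (adjusted p = 3.165e-07) and 0.99 with miR-205 (adjusted p = 9.957e-07). The group means were 8.97, 9.01 and 9.05, against 10.05 with the shared scramble arrays. The ATF4 target DDIT3, which encodes CHOP, fell by 1.39 (adjusted p = 1.316e-05 by limma), 1.10 (adjusted p = 6.127e-05) and 1.37 (adjusted p = 1.717e-05). Neither gene differed past the threshold between any of the microRNA groups.

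IRF1, an interferon-induced factor, rose by 1.10 with miR-130a (adjusted p = 8.366e-06 by limma) and by 0.52 with miR-203 (adjusted p = 0.00201), and differed by -0.018 with miR-205, which did not pass. JUN, a component of AP-1, rose by 0.84 with miR-130a (adjusted p = 1.234e-05) and fell by 0.28 with miR-205 (adjusted p = 0.02729). The JUN call for miR-205 was lost on leaving out miR-205 replicate 2 (-0.24, adjusted p = 0.08697), miR-205 replicate 3 (-0.25, adjusted p = 0.09268), scramble replicate 1 (-0.24, adjusted p = 0.08116) or scramble replicate 3 (-0.25, adjusted p = 0.09194).

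Of 7 genes listed for the turnover of MCL1 protein, all were on the arrays and 6 were tested. Whether each acts on MCL1 itself was not tested, and no protein turnover was measured. With miR-203 4 of 6 rose and 0 fell (17.3% and 18.9% of all tested genes), with miR-130a 2 rose and 1 fell (12% and 11.6%), and with miR-205 1 rose and 0 fell (11.3% and 14.8%). The medians were 0.31, 0.13 and 0.11, beside 0.0061, -0.0085 and -0.0038 over all tested genes. The miR-203 count was 2 without miR-203 replicate 1 or scramble replicate 2, and the miR-205 count was 0 without any of 8 arrays, each miR-205 array among them. The ubiquitin ligase gene MARCHF5 rose by 0.49 with miR-130a (adjusted p = 0.001272 by limma) and by 0.52 with miR-203 (adjusted p = 0.0005632). CUL5, a scaffold of ubiquitin ligases, fell by 0.66 with miR-130a (adjusted p = 4.115e-05) and rose by 0.39 with miR-203 (adjusted p = 0.00139), while its other probe sets did not pass with miR-130a (-0.22 and -0.17).

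FBXW7, which recognises MCL1 for degradation, rose by 0.48 with miR-130a (adjusted p = 0.004635 by limma) and by 0.30 with miR-203 (adjusted p = 0.03514). USP9X, which removes ubiquitin from MCL1, rose by 0.31 with miR-203 (adjusted p = 0.01978 by limma). With its probe set of largest variance, 201099_at, the difference was 0.25 and did not pass (adjusted p = 0.151 by limma). The miR-203 calls were lost for both without miR-203 replicate 1 (FBXW7 at 0.16, adjusted p = 0.1186; USP9X at 0.23, adjusted p = 0.07814) and without scramble replicate 2 (0.25, adjusted p = 0.1159; 0.23, adjusted p = 0.08392). FBXW7 was also lost without scramble replicate 1 (0.30, adjusted p = 0.07012).

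**Figure D4:**
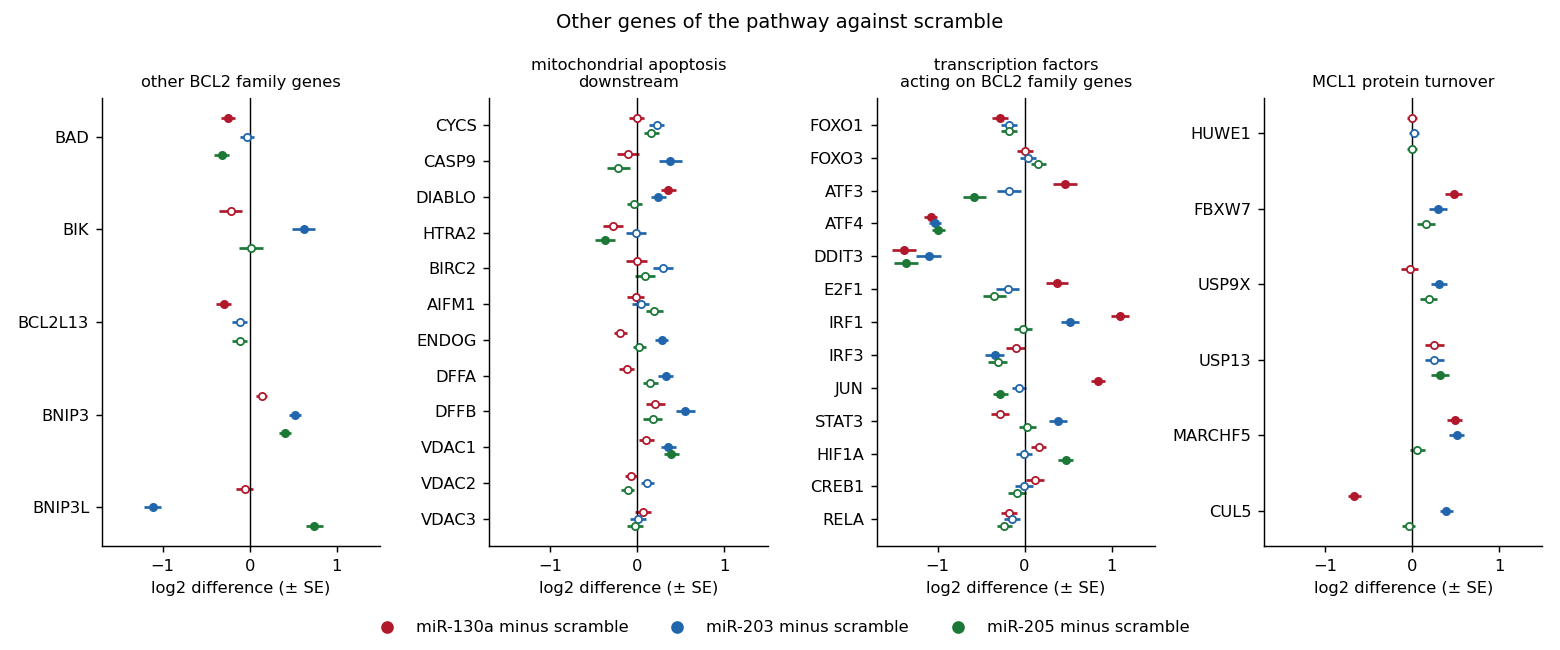
Log2 difference from scramble (horizontal axis, bars are ± SE, 3 arrays a group) of the tested genes of the 4 lists (vertical axis, 1 panel a list), coloured by microRNA; open points did not pass the threshold. ATF4 and DDIT3 lie near or below -1 for all 3 microRNAs, and BNIP3L lies on opposite sides of 0 with miR-203 (-1.12) and miR-205 (0.74).

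The genes whose pattern over the 12 arrays was most like that of a member are given as a description. The arrays share their groups, so a high correlation reflects a like order of the groups. PMAIP1 was nearest to APOL2 (r = 0.987), PLAAT4 (r = 0.986) and KLF4 (r = 0.985). These genes differed from scramble by 1.34, 4.34 and 3.25 with miR-130a, by 0.61, 2.20 and 1.22 with miR-203, and by -0.35, -0.15 and -0.28 with miR-205. BCL2L1 was nearest to APPBP2 (r = 0.975), which differed by 0.38, -1.56 and 0.68, and then to MPC2 (r = 0.973) and PPFIBP2 (r = 0.966).

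MCL1 was nearest to DIABLO (r = 0.961), B4GAT1 (r = 0.955) and SAMHD1 (r = 0.952), and BCL2L2 to LAMTOR5 (r = 0.941), MGST3 (r = 0.938) and DNASE2 (r = 0.927). SAMHD1 differed from scramble by 0.85, 0.57 and 0.0071 with miR-130a, miR-203 and miR-205. MGST3 differed by -0.44, -0.36 and -0.046.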

How the data were processed

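Total RNA of 12 LNCaP cultures was measured on arrays, 3 in each of 4 groups taken from the sample titles. The authors deposited 1 log2 value for each of 22277 probe sets and each array. The submitters' processing notes list R 2.9.0, RMA and limma without saying what each did, and the sources used here do not give the background correction or annotation build. The platform annotation gave the gene names: 19070 have 1 symbol and were used, 1043 have several and 2164 none. Symbols of 19058 were found in the reference table (GRCh38.p14), and 0 were changed.

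Group means over all 12 arrays were fitted with limma 3.58.1 in R 4.3.3 and the variances moderated by eBayes (residual degrees of freedom 8, prior 4.84), two-sided, with a threshold of 0.05 after Benjamini-Hochberg adjustment over 6821 genes. A second fit took 10067 probe sets as features. The procedure was tested on simulated data. An exact test of 3 arrays against 3 has 10 splits and cannot go below p = 0.1, so none is given. The number of arrays limits the precision, and p-values reflect only how far these cultures spread.

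The members and gene lists were chosen with earlier results of these data known. Named were all members and, of each other list, up to 4 genes past the threshold against scramble with the smallest F-test p. The 3 genes of highest Pearson r were named for the 4 members of largest F. Alternatives covered scaling, array weights, the arrays in the fit, the replicate number, the eBayes prior, the filter, the probe set of a gene and each array left out. For the other lists they were added after the data were seen.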

Additional observations from a re-analysis of the deposited data

How the results depend on the processing

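Over 21 settings, 12 of them with 1 array left out, 818 of 882 member differences kept their direction and their side of the threshold. A further 15 were not called either way and changed sign, 36 were no longer past the threshold and 11 became so. The other 2 were MCL1 between miR-130a and miR-203, which changed sign and passed. It stood at -0.37 with the probe set of largest variance, which is 200798_x_at, and at -0.19 with probe sets averaged. PMAIP1 passed against scramble in all 21 settings for all 3 microRNAs, at 2.20 to 2.36 with miR-130a, 0.79 to 1.09 with miR-203 and -0.58 to -0.42 with miR-205. BCL2L2 (-0.53 to -0.40) and MCL1 (0.36 to 0.61) with miR-130a and BCL2L1 with miR-203 (-1.02 to -0.57) also passed in all 21. MCL1 with miR-203 lost its call only with the 2 groups compared in the fit (adjusted p = 0.05213, limma), and rose by 0.99 with the probe set of largest variance. With only the 2 groups compared in the fit, 2 members and 5 probe sets changed with miR-203, fewer members than the 3 with miR-130a, and 1 member and 1 probe set with miR-205; BID, BAK1 and BCL2L2 (miR-203) and BCL2L1 (miR-205) also lost their calls. With no filter on dim probe sets, 1 member and 1 probe set changed with miR-205, and BID and BCL2L2 (miR-203) and BCL2L1 (miR-205) lost their calls. Without the filter the pro-apoptotic minus pro-survival median difference was -0.057 for miR-130a and 0.45 for miR-203 against scramble, -0.045 for miR-130a against miR-203 and 0.44 for miR-203 against miR-205, since the dim BCL2 and BCL2L11 then count. Array weights brought BAX past the threshold between miR-203 and miR-205 (-0.41, adjusted p = 0.009519 by limma). With array weights, 5 members differed between miR-130a and miR-203, and the pro-apoptotic minus pro-survival median difference was -0.082. The latter, -0.21 with the brightest probe sets, was 0.070 with the probe set of largest variance and 0.071 with probe sets averaged per gene. With the brightest probe sets MCL1, at 0.094, was itself the pro-survival median. Under the other 2 settings MCL1 stood at -0.37 and -0.19. With single arrays left out, 1 to 2 members and 1 to 3 probe sets changed with miR-205, and 3 to 6 members differed between miR-203 and miR-205. The median difference then ran from 0.59 to 0.80 for miR-203, from -0.12 to 0.10 for miR-205 and from 0.086 to 0.34 for miR-130a against miR-205 (0.21 with all arrays).

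Deviations of the 18 same-number pairs of arrays correlated at -0.11 to 0.31 (median 0.037), with 3 over 0.1, and other pairs had a median of -0.012. The labels do not say whether arrays of the same number were handled together. With 3 arrays a group, these correlations cannot settle it. With the replicate block, 3, 6 and 2 members changed against scramble with miR-130a, miR-203 and miR-205, and 6, 9 and 3 probe sets. The block left 2, 3 and 4 members between miR-130a and miR-203, miR-130a and miR-205, and miR-203 and miR-205, and 5 of 7 by the F-test. BAK1 between miR-203 and miR-205 no longer passed under it (adjusted p = 0.05371, limma).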
